A study of Mus musculus with 2 samples.

Results

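The 10 genes described here encode chaperones of the endoplasmic reticulum (ER): Hspa5, Hyou1, Sdf2l1, Manf, Hsp90b1, Calr, Canx, Pdia3, Pdia4 and Pdia6. They were taken by symbol from the 28692 genes of the count table, and all 10 were found once. Droplet single-cell RNA sequencing with 3′ chemistry was done on peritoneal cavity cells of germ-free C57BL/6 mice. Xbp1dIEC mice, which lack Xbp1 in the intestinal epithelium by their label, were compared with wild-type (WT) mice. There was 1 library per genotype, each made from 4 pooled male mice of 10 weeks, and 8700 cells were loaded for each. All animals carried no microbes, so no value here comes from a colonised host. The epithelium that carries the deletion was not among the cells profiled, and the line that drives the deletion is not given in the sources used here.

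Secreted and membrane proteins fold in the ER with the help of these genes' products. Hspa5 (BiP), an HSP70-type chaperone, binds unfolded stretches of protein in cycles of ATP hydrolysis. Calnexin and calreticulin hold glycoproteins by their sugars, and protein disulfide isomerases form and rearrange disulfide bonds. When unfolded protein builds up, the sensors IRE1 (Ern1), PERK (Eif2ak3) and ATF6 start the unfolded protein response. IRE1 splices Xbp1 mRNA into the form that codes for an active transcription factor, and XBP1 and ATF6 raise transcription of many ER chaperones. Among peritoneal cells, B-1 cells are an innate-like source of natural antibody, and the resident large macrophages, marked by Gata6, take up dead cells and debris.

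All 10 are protein-coding genes, placed by RefSeq on GRCm38.p6. The BiP group comprises Hspa5 at chr2:34772090-34776529, Hyou1 at chr9:44379490-44392369, Sdf2l1 at chr16:17130138-17132383 and Manf at chr9:106888753-106891938. Hsp90b1 at chr10:86690841-86705444, the lectins Calr at chr8:84842088-84846931 and Canx at chr11:50293957-50325673 and the isomerases Pdia3 at chr2:121413902-121438687, Pdia4 at chr6:47796141-47813512 and Pdia6 at chr12:17266589-17284785 complete the set.

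The ER stress response element was first described in promoters of this gene family, as a CCAAT box set at a fixed distance before CCACG. Both motifs, with a spacer of exactly 9 unspecified bases between them, were searched on both strands from 250 bases before to 50 after the start of each gene, in promoters from RefSeq on GRCm38.p6. The promoter table held 8 of the 10 genes; Manf and Hyou1 had no entry. The element was in 5 of those 8, against 39 of all 32851 promoters (0.119%). The stretches that hold it are printed so that its spacing can be read, 5′ to 3′ on the strand of the gene. Capitals mark the match, and on the opposite strand the match is read backwards and complemented.

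Hspa5 (chr2:34772005-34772063, + strand): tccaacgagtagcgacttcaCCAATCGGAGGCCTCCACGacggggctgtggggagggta
Hsp90b1 (chr10:86705513-86705676, - strand): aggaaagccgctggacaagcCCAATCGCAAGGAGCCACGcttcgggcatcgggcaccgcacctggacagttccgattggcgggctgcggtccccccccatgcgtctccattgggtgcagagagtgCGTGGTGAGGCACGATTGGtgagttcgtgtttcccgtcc
Calr (chr8:84847055-84847113, - strand): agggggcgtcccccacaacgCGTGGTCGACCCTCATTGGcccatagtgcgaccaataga
Canx (chr11:50325780-50325838, - strand): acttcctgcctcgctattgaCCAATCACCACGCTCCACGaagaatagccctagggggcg
Pdia6 (chr12:17266471-17266529, + strand): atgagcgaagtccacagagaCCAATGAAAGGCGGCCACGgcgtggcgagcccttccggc

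Hsp90b1 held the element on both strands, at -212 to -194 and -107 to -89 from its start, and Hspa5 held it at -65 to -47. Pdia3, Pdia4 and Sdf2l1 held no exact match in this window. The second form of the element, in which a reversed CCAAT box stands 1 base before the other motif, was in 0 of the 8 promoters and in 0.0365% of all promoters. The UPRE core TGACGTGG was likewise in 0 of the 8, against 0.676% of all. A plain CCAAT, which the element contains, was in all 8 and in 37.4% of all promoters. These are letter matches only and say nothing of binding in these cells.

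The libraries held 6246 barcodes with 49703442 UMIs (unique molecular identifiers, each counting 1 captured mRNA molecule) for Xbp1dIEC and 6204 barcodes with 56229330 UMIs for WT. After filtering, 6117 Xbp1dIEC and 6055 WT cells were kept. The libraries share 58 barcodes. Cells were gated by summed UMIs of marker genes into large macrophages (2550 Xbp1dIEC and 2629 WT cells), Folr2/Retnla macrophages (398 and 251), Cd209a cells (70 and 67), B-1 cells (771 and 445), B-2 cells (717 and 882), T cells (222 and 280) and NK cells (29 and 22). Marker genes that no gate used were highest in the class they mark: the 6 for the B lineage summed to 3730 UMIs per 1000000 (CPM) in Xbp1dIEC and 4246 CPM in WT B-1 cells, against 82.7 and 88.2 CPM in large macrophages. The 8 large macrophage markers summed to 254 CPM in Xbp1dIEC and 306 CPM in WT B-1 cells, against 13203 and 12687 CPM in large macrophages, so some macrophage RNA was read in B cell barcodes of both libraries; its part in the B cell values was not tested. Gates of more than 1 lineage were met by 6.88% of Xbp1dIEC and 9.74% of WT cells, which were left out.

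All chaperone levels are UMIs summed over the cells of a class and given as CPM, with no division by transcript length because 3′ chemistry counts each molecule once. With 1 library per genotype nothing was tested. Every interval is a 95% interval that covers counting error only, and difference between the pools of mice cannot be told apart from difference between genotypes. A gene was counted as higher or lower when its log2 ratio of Xbp1dIEC over WT passed 0.3 in size.

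The chaperones were most abundant in macrophages in both libraries. The sum of the 10 genes was 2574 CPM in Xbp1dIEC and 2810 CPM in WT Folr2/Retnla macrophages, and 2408 CPM in Xbp1dIEC and 2923 CPM in WT large macrophages. Cd209a cells, with genes of antigen presentation such as Cd74 among their check markers, had 1941 CPM in Xbp1dIEC and 1738 CPM in WT. B-1 cells had 1263 CPM in Xbp1dIEC and 996 CPM in WT. B-2 cells followed with 1111 CPM in Xbp1dIEC and 964 CPM in WT, and T cells were lowest with 765 CPM in Xbp1dIEC and 770 CPM in WT. NK cells had 1539 CPM in Xbp1dIEC and 999 CPM in WT from 144 and 78 UMIs, so their place is loosely fixed. In Xbp1dIEC no neighbours in this order overlapped, whereas in WT the intervals of NK, B-1 and B-2 cells did.

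**Figure D1:**
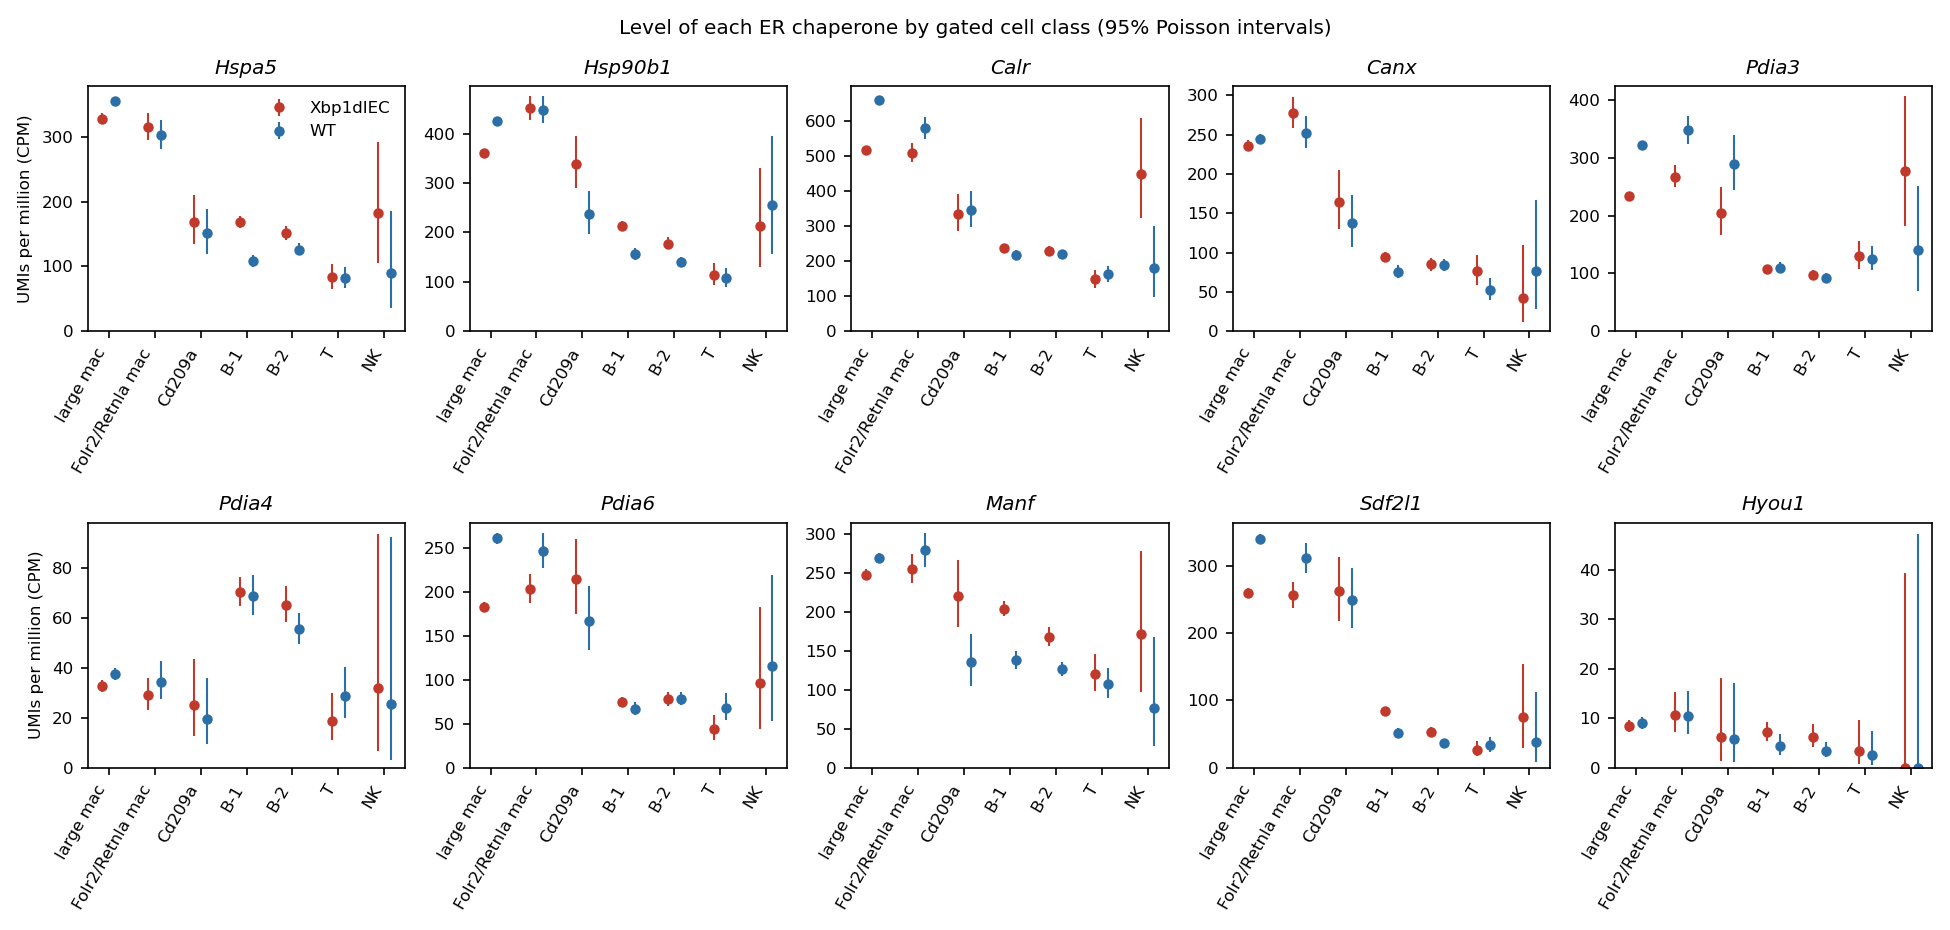
Level of each ER chaperone (y axis, CPM) in the 7 gated cell classes (x axis), with Xbp1dIEC in red and WT in blue and exact Poisson 95% intervals. Macrophages stand above B and T cells for most genes, whereas Pdia4 is highest in B cells, at 70.6 CPM in Xbp1dIEC and 68.8 CPM in WT B-1 cells.

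Hspa5, the central HSP70-type chaperone of the ER, was read at 328 CPM in Xbp1dIEC and 354 CPM in WT large macrophages. In B-1 cells it stood at 169 CPM in Xbp1dIEC (160 to 178) and 108 CPM in WT (98.5 to 118). The 2 intervals in B-1 cells do not overlap, and the Xbp1dIEC value was 0.64 higher on the log2 scale (0.49 to 0.80). B-2 cells had 151 CPM in Xbp1dIEC and 126 CPM in WT, a log2 ratio of 0.26 (0.11 to 0.41). T cells had 82.9 CPM in Xbp1dIEC and 81.7 CPM in WT, a log2 ratio of 0.02 (-0.43 to 0.47). Hspa5 was thus higher in Xbp1dIEC in both B cell classes. In T cells the wide interval includes the B-2 ratio, so a contrast between B-2 and T cells was not resolved. The T cell interval lies below that of the B-1 ratio (0.49 to 0.80). In WT, B-1 cells stood below B-2 cells for this gene, with a log2 ratio of -0.22 (-0.39 to -0.05), and in Xbp1dIEC above them, with 0.16 (0.03 to 0.29).

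Sdf2l1 forms part of the complex through which BiP works with its J-domain partners. Its level varied most between classes, 9.89-fold in Xbp1dIEC and 10.2-fold in WT between the highest and the lowest class when NK cells are left aside. Large macrophages had 260 CPM in Xbp1dIEC and 340 CPM in WT. B-1 cells had 83.9 CPM in Xbp1dIEC and 51.4 CPM in WT, the largest log2 ratio of the 10 genes in that class, at 0.70 (0.49 to 0.93). T cells were lowest, with 26.5 CPM in Xbp1dIEC and 33.2 CPM in WT. Sdf2l1 was therefore lower in Xbp1dIEC macrophages, with a log2 ratio of -0.39 (-0.44 to -0.34), and higher in Xbp1dIEC B-1 cells.

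Manf, a small ER protein that binds BiP and can be secreted, varied least between classes, 2.12-fold in Xbp1dIEC and 2.58-fold in WT. It was read at 248 CPM in Xbp1dIEC and 269 CPM in WT large macrophages. B-1 cells had 204 CPM in Xbp1dIEC and 138 CPM in WT, a log2 ratio of 0.56 (0.43 to 0.70). B-2 cells had 168 CPM in Xbp1dIEC and 127 CPM in WT, with 0.41 (0.26 to 0.56). The same direction in both B cell classes, with intervals apart from 0, was seen for Hspa5, Sdf2l1, Manf and Hsp90b1. Manf made up 16.1% of the chaperone UMIs in Xbp1dIEC and 13.8% in WT B-1 cells, against 10.3% and 9.22% in large macrophages.

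Hyou1, a large HSP70-related protein that acts as an exchange factor for BiP, was the rarest of the 10. Its highest level was 10.7 CPM in Xbp1dIEC and 10.5 CPM in WT Folr2/Retnla macrophages. B-1 cells had 60 UMIs (7.23 CPM) in Xbp1dIEC and 19 UMIs (4.42 CPM) in WT. That ratio of 0.60 has an interval from -0.05 to 1.54, so the difference was not resolved at this depth. NK cells had 0 UMIs of Hyou1 in both libraries, which allows up to 39.4 CPM in Xbp1dIEC and 47.2 CPM in WT by the upper 95% bound.

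Hsp90b1 (GRP94), the ER form of HSP90, was read at 361 CPM in Xbp1dIEC and 425 CPM in WT large macrophages, a log2 ratio of -0.24 (-0.28 to -0.19). Folr2/Retnla macrophages were highest, with 452 CPM in Xbp1dIEC and 448 CPM in WT. B-1 cells had 213 CPM in Xbp1dIEC and 155 CPM in WT, with 0.45 (0.32 to 0.58), and B-2 cells 178 CPM in Xbp1dIEC and 141 CPM in WT, with 0.33 (0.19 to 0.47). Hsp90b1, whose promoter holds the element on both strands, thus stood on opposite sides of 0 in large macrophages and B cells.

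Calr and Canx encode calreticulin and calnexin, the soluble and the membrane-bound lectin chaperone. Calr gave the most UMIs of the 10 in both macrophage classes, B-1, B-2 and T cells of both libraries. It was read at 517 CPM in Xbp1dIEC and 660 CPM in WT large macrophages, a log2 ratio of -0.35 (-0.39 to -0.32). In B-1 cells Calr had 239 CPM in Xbp1dIEC and 217 CPM in WT, a log2 ratio of 0.13 (0.02 to 0.25). Canx stood closer to level in large macrophages, with 236 CPM in Xbp1dIEC and 245 CPM in WT, a log2 ratio of -0.06 that equals the median of all genes there. In B-1 cells Canx had 94.6 CPM in Xbp1dIEC and 75.8 CPM in WT, with 0.32 (0.13 to 0.51), but in B-2 cells 85.1 CPM in Xbp1dIEC and 84.5 CPM in WT. The lectin pair therefore did not move alike: Calr differed more in large macrophages and Canx more in B-1 cells.

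Among the disulfide isomerases, Pdia6 and Pdia3 had the largest gaps of the 10 genes in large macrophages. Pdia6 had 183 CPM in Xbp1dIEC and 260 CPM in WT large macrophages, a log2 ratio of -0.51 (-0.57 to -0.45). Pdia3, which works with calnexin and calreticulin on glycoproteins, had 235 CPM in Xbp1dIEC and 322 CPM in WT there, with -0.45 (-0.51 to -0.40). In B-1 cells Pdia3 had 108 CPM in Xbp1dIEC and 110 CPM in WT, and Pdia6 74.6 CPM in Xbp1dIEC and 66.9 CPM in WT, both with intervals that include 0. Over all B-1 cells Pdia3 and Pdia6 thus stood near level, whereas Hspa5, Sdf2l1, Manf and Hsp90b1 were higher in Xbp1dIEC.

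Pdia4 went against the class order of the other 9. It was read at 70.6 CPM in Xbp1dIEC and 68.8 CPM in WT B-1 cells, and at 65.4 CPM in Xbp1dIEC and 55.6 CPM in WT B-2 cells. Large macrophages had 32.7 CPM in Xbp1dIEC and 37.6 CPM in WT. B-1 cells thus stood 2.12-fold above large macrophages in Xbp1dIEC and 1.81-fold in WT, whereas the sum of the 10 genes was 0.525 of the macrophage level in Xbp1dIEC and 0.341 in WT. Over the 14 points of 7 classes in 2 libraries, Pdia4 had a Pearson correlation of -0.12 with the mean of the other 9, which correlated with theirs at 0.61 (Hyou1) to 0.94 (Sdf2l1). These points share libraries and cell classes, so the correlations are descriptions.

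Set against the mean of the 10 chaperones over the same 14 points, the 10 genes with the most similar pattern among 4589 ranked were Cyba, Siva1, Ndufb4, Gnb1, Akt1, Tmed7, Dusp3, Bri3, Ost4 and Eif4ebp1. Their Pearson correlations ran from 0.97 for Cyba, a subunit of the phagocyte oxidase, to 0.94 for Eif4ebp1. Ost4, a subunit of the oligosaccharyltransferase of the ER, correlated at 0.95. The mean level of Cyba was 1449 CPM and that of Tmed7, a cargo receptor of the early secretory path, 44.1 CPM.

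Between the genotypes, the sum of the 10 genes in large macrophages gave a log2 ratio of -0.28 (-0.30 to -0.26). All 10 lay below 0 there, and 4 passed -0.3: Pdia6, Pdia3, Sdf2l1 and Calr. Among all 11035 genes with 30 or more UMIs in that class, 14.6% were lower and 4.95% higher by that size. The median ratio of all genes was -0.06 against -0.21 for the 10. Most of all genes thus lay below 0 too, by a share that was not counted. Large macrophages had a median of 7809 UMIs per cell in Xbp1dIEC and 9702 in WT, and in cells of 5000 to 10000 UMIs the sum gave -0.19. Cycling cells made up 4.94% of Xbp1dIEC and 10.5% of WT large macrophages. The sum was 2341 CPM in 126 Xbp1dIEC and 2809 CPM in 275 WT cycling cells, with -0.26, and 2412 CPM in Xbp1dIEC and 2942 CPM in WT cells that were not cycling, with -0.29. The lower level was therefore of similar size in cycling and in other large macrophages. The part of UMI depth in it was not tested beyond the depth window.

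In B-1 cells the sum gave a log2 ratio of 0.34 (0.29 to 0.39). There 6 of the 10 passed 0.3, namely Sdf2l1, Hspa5, Hyou1, Manf, Hsp90b1 and Canx, and 0 passed -0.3. Among all 9259 genes with enough UMIs 16.7% were higher and 15.5% lower, with a median of 0.00 against 0.38 for the 10. Pdia3 (-0.03), Pdia4 (0.04), Calr (0.13) and Pdia6 (0.15) stayed inside the limit. When each cell was thinned to 2400 UMIs before gating, the sum gave 0.30, Hspa5 gave 0.28 and Hyou1 gave 0.01.

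B-1 cells were split by genes of 2 states, whose shares differed between the libraries. The state with more UMIs of Ahnak2, Phgdh and Ass1 held 236 Xbp1dIEC and 242 WT cells. In it the chaperone sum was 1351 CPM in Xbp1dIEC and 933 CPM in WT, a log2 ratio of 0.53 (0.46 to 0.61). The state with more of Fbxw13, Prkar2b and Fgd2 held 438 Xbp1dIEC and 145 WT cells, with 1203 CPM in Xbp1dIEC and 1061 CPM in WT and a ratio of 0.18 (0.10 to 0.27). The ratio lay above 0 in both states but was larger in the first, and this split was chosen after the data had been seen. Fbxw13 was also a marker of the B-1 gate, and the effect of this overlap was not tested. In the first state Sdf2l1 had 98.0 CPM in Xbp1dIEC and 46.9 CPM in WT, with 1.05 (0.74 to 1.39), and Hspa5 179 CPM in Xbp1dIEC and 99.5 CPM in WT, with 0.84 (0.62 to 1.08). Pdia3, near level over all B-1 cells, gave 0.26 (0.01 to 0.50) in the first state and -0.19 (-0.46 to 0.08) in the other. Pdia6 gave 0.26 (-0.05 to 0.57) in the first state and -0.03 (-0.36 to 0.30) in the other. Without cells that held a UMI of the plasma cell genes Jchain, Sdc1, Prdm1 or Tnfrsf17, the sum over all B-1 cells gave 0.35.

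In B-2 cells the sum gave 0.20 (0.15 to 0.26), with 4 genes past 0.3 (Hyou1, Sdf2l1, Manf and Hsp90b1) and 0 past -0.3, against 10.5% and 15.7% of 9008 genes. That sum gave 0.03 when cells were thinned before gating, 0.13 when the gate minimum was doubled and 0.29 in cells of 5000 to 10000 UMIs, and the cause was not tested. Set against B-2 cells of the same library, B-1 cells had a higher chaperone sum in Xbp1dIEC, with a log2 ratio of 0.18 (0.14 to 0.23), and in WT the ratio of 0.05 included 0 (-0.01 to 0.10).

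In Folr2/Retnla macrophages the sum gave -0.13 (-0.17 to -0.08), 1 gene (Pdia3, -0.38) passed -0.3 and 0 passed 0.3, against 22.0% lower and 12.3% higher of 7891 genes. In Cd209a cells the sum gave 0.16 (0.02 to 0.29), and of the 8 genes with enough UMIs 3 passed 0.3 (Manf, Hsp90b1 and Pdia6) and 1 passed -0.3 (Pdia3, -0.50), against 15.8% higher and 27.6% lower of 3249 genes. Pdia3 was thus lower in Xbp1dIEC in both macrophage classes and in Cd209a cells. In T cells the sum gave -0.01 (-0.15 to 0.14), with 1 of 9 genes higher (Canx) and 3 lower (Pdia6, Pdia4 and Sdf2l1), against 17.0% and 19.0% of 5105 genes. In NK cells the sum gave 0.62 (0.22 to 1.04), the largest ratio of the 7 classes and from the fewest cells. With cells thinned to equal depth, the top 2 of 29 Xbp1dIEC NK cells held 32.0% of the chaperone UMIs. The top 2 of 22 WT NK cells held 21.6%. The median per NK cell was 3 chaperone UMIs in Xbp1dIEC and 2 in WT. The interval does not cover such spread between cells, and the part of the top cells in the ratio was not tested. Only 3 genes had 30 or more UMIs in NK cells, and 2 of them (Calr and Pdia3) were higher, against 22.1% higher and 18.3% lower of 736 genes.

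**Figure D2:**
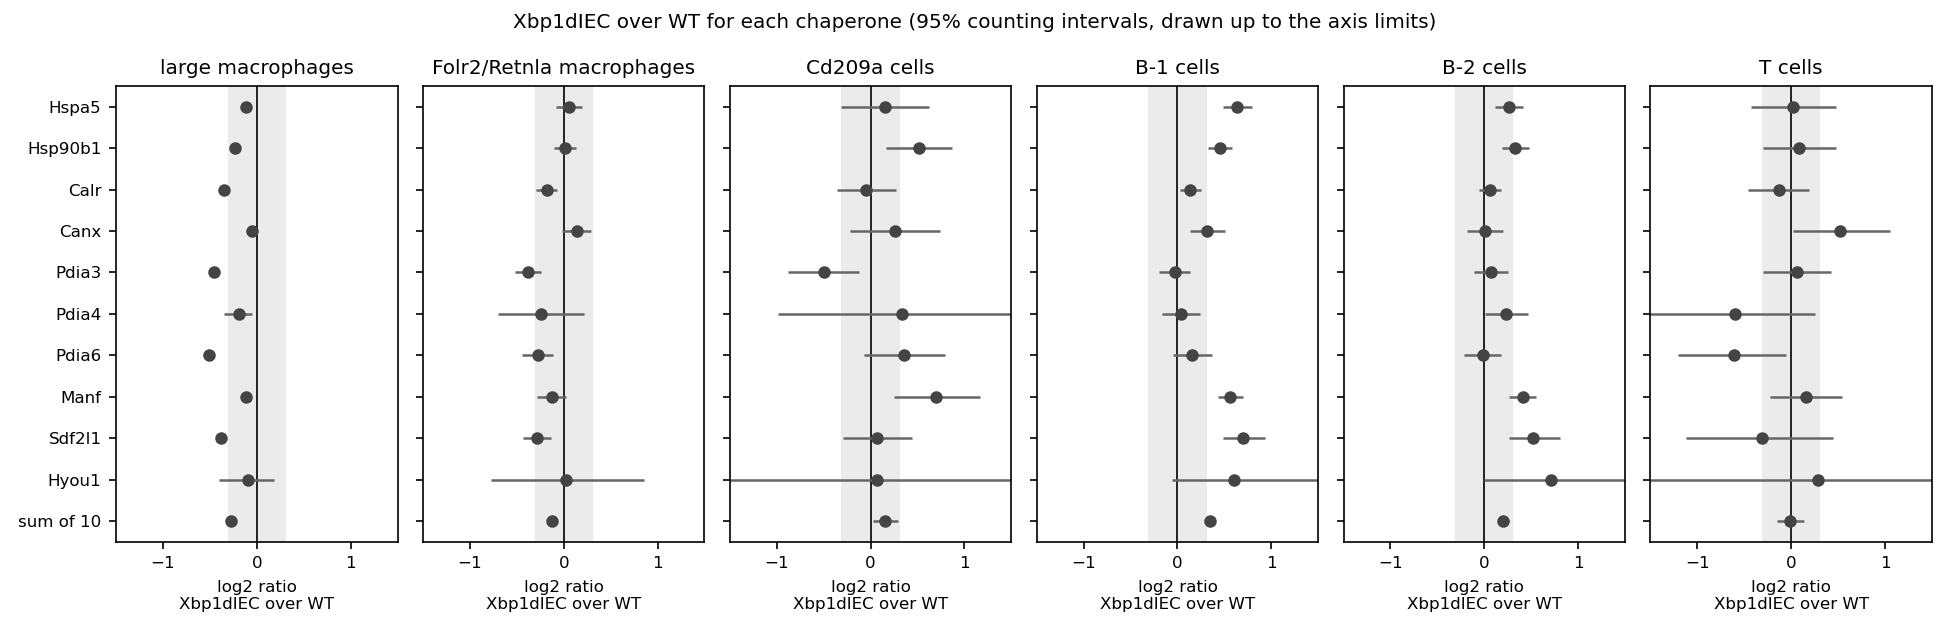
Log2 ratio of Xbp1dIEC over WT (x axis) for each chaperone and their sum (y axis) in 6 cell classes, with 95% counting intervals drawn up to the axis limits; the grey band marks ratios within 0.3 of 0. The sum lies at -0.28 in large macrophages and at 0.34 in B-1 cells, and Pdia6 and Pdia3 lie furthest left in large macrophages.

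The genes with and without an ER stress response element overlapped in their ratios. In B-1 cells the 5 with a match ran from 0.13 (Calr) to 0.64 (Hspa5). Of the 3 with none, Pdia3 (-0.03) and Pdia4 (0.04) lay below all 5, and Sdf2l1 (0.70) lay above them. In large macrophages those with a match ran from -0.51 (Pdia6) to -0.06 (Canx), and those with none lay within that range, at -0.45 (Pdia3), -0.39 (Sdf2l1) and -0.19 (Pdia4).

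Per cell, at an equal 2400 UMIs, the median number of chaperone UMIs was 5 in Xbp1dIEC and 6 in WT large macrophages, and 2 in both libraries of B-1 and of B-2 cells. No chaperone UMI was read in 73 of 771 Xbp1dIEC and 71 of 445 WT B-1 cells. The 5% of B-1 cells with most chaperone UMIs held 18.4% of them in Xbp1dIEC and 16.2% in WT, and those of large macrophages 12.9% in Xbp1dIEC and 12.8% in WT. In both classes most cells held at least 1 chaperone UMI.

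**Figure D3:**
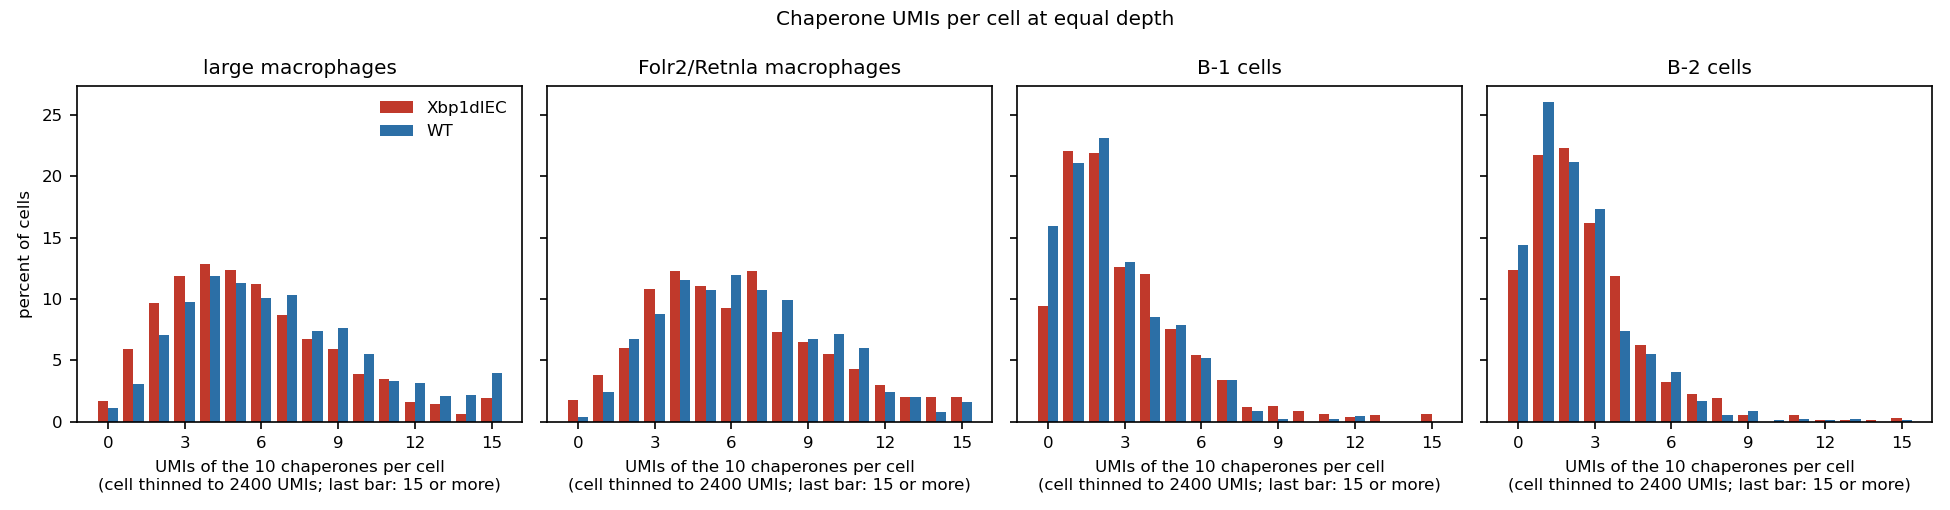
Percent of cells (y axis) by the number of UMIs of the 10 chaperones per cell (x axis), after each cell was thinned to 2400 UMIs, for Xbp1dIEC (red, left bar) and WT (blue, right bar). Xbp1dIEC large macrophages, with a median of 5, lie to the left of WT ones, with a median of 6, and a smaller share of Xbp1dIEC than of WT B-1 cells has 0.

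For single genes at 2400 UMIs, 28.0% of Xbp1dIEC (24.9 to 31.3%) and 24.9% of WT B-1 cells (21.0 to 29.2%) held a UMI of Hspa5. Without thinning these shares were 64.7% and 51.0%, at medians of 8966 UMIs per cell in Xbp1dIEC and 8252 in WT. For Manf the thinned shares were 36.6% in Xbp1dIEC (33.2 to 40.1%) and 27.6% in WT (23.5 to 32.0%), intervals that do not overlap. In large macrophages 39.1% of Xbp1dIEC and 50.3% of WT cells held a UMI of Pdia3, and 39.4% of Xbp1dIEC and 49.6% of WT cells one of Sdf2l1. All cells use these genes, so no class gives a background share for free RNA.

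The other genes of the pathway were described from fixed lists by the same limit, and of each list the highest and lowest member with 100 or more UMIs is named. The shares over all genes to read the counts against are those given above: in large macrophages 14.6% past -0.3 and 4.95% past 0.3, and in B-1 cells 16.7% past 0.3 and 15.5% past -0.3. In large macrophages most of all genes lay below 0 (median -0.06), by a share that was not counted. There 27 of 31 other ER folding genes lay below 0, with 7 past -0.3, 0 past 0.3 and a median of -0.18. Pdia5, another disulfide isomerase, was lowest of these with 6.66 CPM in Xbp1dIEC and 11.4 CPM in WT (-0.69), and Dnajb9, a J-domain partner of BiP, was highest (0.26). Genes of ER entry and glycan transfer lay below 0 for 23 of 24, with 5 past -0.3 and a median of -0.21, and the lowest was Ssr2, a subunit of the translocon-associated complex, with 70.7 CPM in Xbp1dIEC and 111 CPM in WT (-0.64), while Sec63 was highest (0.05). The medians of both lists lay near that of the 10 chaperones (-0.21) and below that of all genes (-0.06). Of the 17 ER-associated degradation genes read there, Herpud1 was the 1 past 0.3, at 77.5 CPM in Xbp1dIEC and 51.5 CPM in WT (0.58), 2 passed -0.3 with Edem2 lowest (-0.43), and the median was -0.06, as for all genes.

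In B-1 cells the medians of those lists stayed near 0. Other ER folding genes had a median of -0.03, with 5 of 30 past 0.3 and 2 past -0.3, between Mlec (0.43) and Txndc11 (-0.42). ER entry and glycan transfer had -0.05, with 0 of 24 past 0.3 and 2 past -0.3, between Spcs3 (0.24) and Ddost (-0.35). ER-associated degradation had -0.05, with 2 of 18 past 0.3 and 1 past -0.3, between Ubxn4 (0.45) and Edem2 (-0.45). Sensors and factors of the unfolded protein response had a median of 0.24, with 7 of 14 past 0.3 and 1 past -0.3. Xbp1 was the highest, at 44.2 CPM in Xbp1dIEC and 30.2 CPM in WT B-1 cells (0.53, 0.26 to 0.85), and Creb3 the lowest (-0.24). In large macrophages Xbp1 had 117 CPM in Xbp1dIEC and 110 CPM in WT, and that list 2 of 14 past 0.3, 0 past -0.3 and a median of 0.03, between Eif2ak3 (0.50) and Creb3 (-0.24). For Xbp1 the log2 ratio was 0.18 in Folr2/Retnla macrophages, 0.17 in Cd209a and 0.25 in B-2 cells, all with intervals that include 0, and 0.95 in T cells (0.22 to 1.77) from 38 UMIs in Xbp1dIEC and 25 in WT. NK cells had 1 UMI of Xbp1 in each library. These UMIs come from the 3′ end of the mRNA in cells outside the epithelium and check nothing of the deletion or of splicing.

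Cytosolic heat shock genes, the counterpart of these chaperones outside the ER, had a higher median ratio than the 10 ER chaperones in B-1 cells. There 15 of 20 passed 0.3, 0 passed -0.3 and the median was 0.65, against 0.38 for the 10. The cytosolic list summed to 4552 CPM in Xbp1dIEC and 3690 CPM in WT B-1 cells. The 10 ER chaperones summed to 1263 CPM in Xbp1dIEC and 996 CPM in WT. By these sums the cytosolic list did not stand higher than the ER chaperones in its ratio. Hspa1a, an inducible HSP70, had 20.7 CPM in Xbp1dIEC and 4.42 CPM in WT B-1 cells (2.00, 1.54 to 2.998), and reads of it may be shared with the near-identical Hspa1b. Dnaja2 was the lowest there (-0.19). In large macrophages Hspa1b was highest, at 3.68 CPM in Xbp1dIEC and 1.26 CPM in WT (1.05), and Hspa4 lowest (-0.28). The same list had 11 of 17 past 0.3 in B-2 cells with a median of 0.38. All genes in B-2 cells had 10.5% past 0.3 and a median of -0.05. In large macrophages the list had 4 of 20 past 0.3, against 4.95% of all genes, with a median of -0.04. By the limit of 0.3, 15 of 20 cytosolic genes and 6 of the 10 ER chaperones were thus higher in Xbp1dIEC B-1 cells, though the interval of Hyou1 includes 0. So were 7 of 14 sensors and factors of the unfolded protein response (median 0.24). The lists of other ER folding, ER-associated degradation and ER entry and glycan transfer had medians near 0 there. Immediate early genes, which respond to handling of cells, had medians of 0.12 in B-1 cells and -0.28 in B-2 cells; the part of cell handling in the chaperone values was not tested. Among these, Jun was highest (0.64) and Junb lowest (-0.20) in B-1 cells, and Ier3 highest (0.33) and Egr1 lowest (-0.58) in large macrophages. The 6 mitochondrial chaperones went both ways in B-1 cells, with 2 past 0.3, 1 past -0.3 and a median of 0.01. Their sum was nevertheless higher in Xbp1dIEC, at 864 CPM against 696 CPM in WT B-1 cells. There Hspd1, the mitochondrial HSP60, had 125 CPM in Xbp1dIEC and 90.4 CPM in WT (0.47, 0.30 to 0.64), and Trap1 was lowest (-0.54). In large macrophages 3 of the 6 passed -0.3, with a median of -0.31, between Hspa9 (-0.13) and Trap1 (-0.41).

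**Figure D4:**
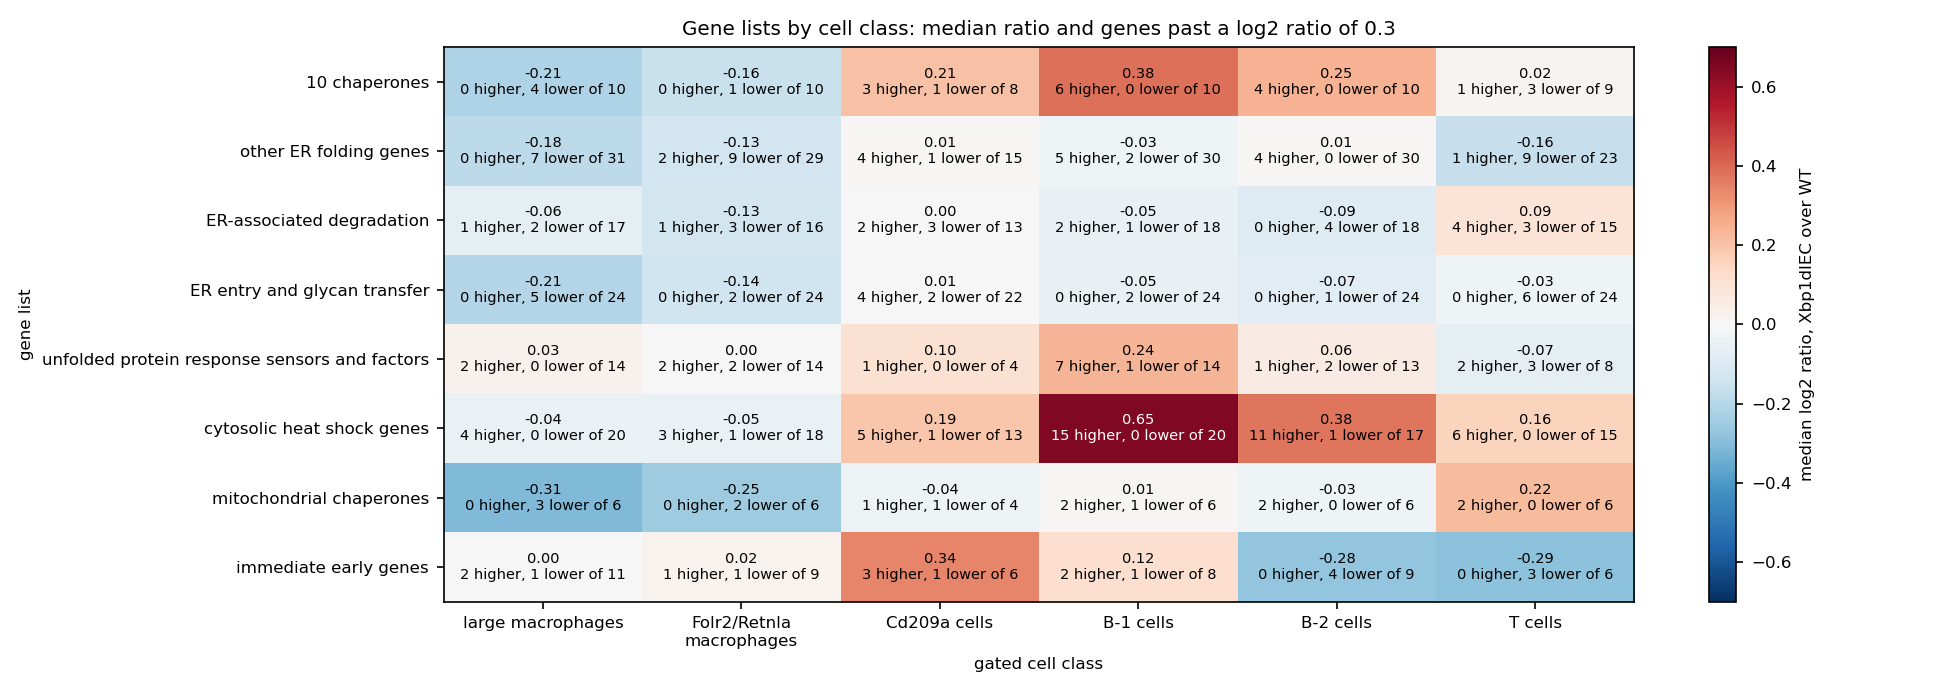
Median log2 ratio of Xbp1dIEC over WT (colour and upper number) for the 10 chaperones and 7 other gene lists (rows) in 6 cell classes (columns), with the number of genes past 0.3 in each direction and the number with 30 or more UMIs. In B-1 cells the cytosolic heat shock genes (0.65) and the 10 chaperones (0.38) are highest, and in large macrophages the ER folding and ER entry lists lie below 0 together with the chaperones.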

How the data were processed

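The authors deposited raw counts, UMIs per gene and barcode. Per the submitters' processing notes, mm10, Seurat 2.3.0 and Cell Ranger 2.2.0 were used; the sources used here give no annotation and no barcode filter. Depth was 49703442 UMIs (median 7280 per barcode) for Xbp1dIEC and 56229330 (median 8324) for WT.

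A barcode needed at least 200 genes and a mitochondrial share under 10%, which removed 20 Xbp1dIEC and 6 WT barcodes. Doublets were called per library with scrublet in scanpy 1.11.5 (expected rate 5%), and 109 Xbp1dIEC and 144 WT barcodes were removed. Gates were minimums of summed marker UMIs: 4 for large macrophages (Gata6, Timd4, Adgre1, Naip1, Garnl3, Selp), 20 for Folr2/Retnla macrophages (Folr2, Retnla, Cbr2, with under 8 of the large macrophage sum), 5 for Cd209a cells (Cd209a, Mgl2, Ear2) and 5 for B cells (among them Cd79a, Cd79b and Ms4a1). B cells needed 3 UMIs of Bhlhe41, Zbtb32, Zcwpw1, Cd5, Fbxw13, Tppp3 and Plscr1 for B-1, or 3 of a list with Fcer2a, Cr2 and Ighd for B-2, and more of their own list than of the other. T cells needed 2 of Cd3d, Cd3e and Cd3g, and NK cells 2 of Ncr1, Klrb1c, Klre1 and Klra8. Of the B cell and B-2 gates, 1 marker each is not reported here. The minimums were set after the files were seen, from the marker sums alone. In all, 1360 Xbp1dIEC and 1479 WT cells were in no class.

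UMIs were summed per class and library in Python 3.11.15 with pandas 2.3.3 and scipy 1.17.1. CPM has exact Poisson intervals, and shares of cells exact Clopper-Pearson intervals. Log2 ratios have 1 CPM added; their exact conditional binomial intervals are of the CPM ratio without it. A gene entered the counts with 30 or more UMIs over both libraries of a class. Cycling cells had at least 2 cell cycle UMIs after thinning to 2400 UMIs. The calculation was tested on simulated data. All 10 chaperones were named, Xbp1 in every class, and of each pathway list the highest and the lowest gene with 100 or more UMIs in large macrophages and B-1 cells. The 10 genes and the lists were chosen with earlier results of these data known. In all, 12 alternatives were planned and 4 were added after the data were seen.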

Additional observations from a re-analysis of the deposited data

Results flagged for a closer look

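The ratio of Xbp1dIEC over WT lay on opposite sides of 0 in B-1 cells and large macrophages for 6 of the 10 genes and for their sum, with both intervals apart from 0. On the log2 scale, the B-1 value minus the large macrophage value was 1.08 for Sdf2l1, 0.749 for Hspa5, 0.685 for Hsp90b1, 0.681 for Manf, 0.487 for Calr and 0.372 for Canx, and 0.621 for the sum. With 1 library per genotype this difference between the classes was not tested. The share of all genes on opposite sides of 0 was not counted, so the 6 cannot be read as particular to the chaperones. For Canx the large macrophage ratio was -0.06, as for the median gene of that class. It kept its sign under 10 of 14 alternatives and reached 0.063, and its interval included 0 in cycling and in other large macrophages alike. For Calr the B-1 ratio was 0.13 and kept its sign under 14 of 15 alternatives. It was -0.08 (-0.26 to 0.10) in the B-1 state with more of Fbxw13, Prkar2b and Fgd2.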

How the results depend on the processing

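No paired analysis was possible because each genotype had 1 library. The log2 ratio of the sum (Xbp1dIEC over WT) lay between -0.29 and -0.19 in large macrophages and between 0.18 and 0.53 in B-1 cells over the 14 and 15 alternatives run. Of the alternative values of sums, 88 moved by no more than counting error and 28 by more. With gate minimums doubled, it was 0.30 in Cd209a cells and 0.13 in B-2 cells, and B-1 over B-2 in WT was -0.031. With barcodes of 2 lineages assigned, B-1 over B-2 in Xbp1dIEC was 0.14. With cells thinned before gating, it was -0.24 in large macrophages and 0.028 in B-2 cells, and B-1 over B-2 in WT was -0.0499. In cells of 5000 to 10000 UMIs, it was -0.19 in large macrophages, -0.0063 in Folr2/Retnla macrophages, 0.29 in B-2 and 0.19 in T cells, and B-1 over B-2 was 0.25 in Xbp1dIEC and 0.22 in WT. Without immunoglobulin, ribosomal and mitochondrial genes, it was -0.22 in large macrophages, -0.063 in Folr2/Retnla macrophages, 0.40 in B-1 and 0.27 in B-2 cells. With the median gene set to 0, large macrophages gave -0.22 and Folr2/Retnla macrophages -0.053, and as a mean over cells -0.25 and -0.0696. Without cycling cells, Folr2/Retnla macrophages gave -0.18. Without cells holding 2 or more UMIs of the fixed plasma cell list, which includes the macrophage gene Slpi, Folr2/Retnla macrophages gave 0.043, and B-1 over B-2 was 0.27 in Xbp1dIEC and 0.13 in WT. The 2 B-1 states gave 0.53 and 0.18, and cycling large macrophages -0.26.

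For single genes whose main ratio passed 0.3 in size, 6 alternative values had the other sign. With cells thinned, Pdia4 gave -0.025 in Cd209a, 0.13 in T and -0.34 in NK cells. At 5000 to 10000 UMIs, Sdf2l1 gave 0.24 in T cells. Without cells of the fixed plasma list, Pdia3 gave 0.094 in Folr2/Retnla macrophages and Pdia4 -0.40 in Cd209a cells. Ratios nearer 0 changed sign more often. In B-2 cells Canx kept its sign under 5 of 13 alternatives and Pdia6 under 7. The cause was not tested. Of the other single-gene values, 106 moved by more than counting error and 808 did not, sign changes of ratios within 0.3 of 0 included. With 100 or more UMIs required, 13.8% of genes in B-1 cells were past 0.3 and 14.2% in large macrophages past -0.3. Counting error limits Hyou1 and Pdia4 and all genes in NK, Cd209a and T cells.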
